A study of Arabidopsis thaliana with 2 samples.

Results

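This account concerns 66 genes of Arabidopsis thaliana that encode basic helix-loop-helix (bHLH) transcription factors outside the iron-deficiency and PHYTOCHROME INTERACTING FACTOR (PIF) groups. They are the rows of the deposited expression table whose gene description holds "bHLH" or "basic helix-loop-helix", in any case, after a fixed set of 16 identifiers was left out. Of 18617 rows in the table, 74 descriptions hold those words, and 8 of these were among the identifiers left out. The choice used descriptions and identifiers, not expression values. It therefore misses bHLH genes described in other words, such as MYC2 and SPEECHLESS, and it covers only genes that the table lists.

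The study sequenced total RNA of seedling shoots of 2 genotypes, wild-type Col-0 and the mutant bts-1, both on Murashige and Skoog medium lacking sucrose. BTS (BRUTUS) is an E3 ubiquitin ligase that restrains the iron-deficiency response. Each genotype had 1 library, so every difference below is between 2 libraries; without replicates there is no test and no error of a difference. The age of the seedlings, the number of plants pooled and the molecular nature of the bts-1 allele are not given in the sources used here. Levels are log2(FPKM + 1), where FPKM are sequenced fragments scaled by transcript length and library size, and the log2 ratio of a gene is its level in bts-1 minus that in Col-0, so that 1 means 2-fold higher in the mutant.

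bHLH proteins carry a basic stretch that contacts DNA and a helix-loop-helix that pairs them with a partner. The pairs read the E-box, with the letters CANNTG, of which the G-box CACGTG is the best known form. Atypical members lack the basic stretch, pair with DNA-binding members and keep them off DNA. In shoots the family is known for control of cell elongation, stomatal development, vascular tissue, flowering and jasmonate responses.

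Of the whole table, the following touches these values. BTS (AT3G18290) stood at 10.84 in Col-0 and 9.57 in bts-1. The 18510 genes that reached an FPKM of 1 in Col-0 or bts-1, called expressed genes here, had a median log2 ratio of 0.04. On chromosome 3 the Col-0 level of a gene varied with the log2 exon length of the gene listed after it, its own exon length held fixed: the slope was -0.57 (SE 0.03), and between -0.02 and 0.04 elsewhere. The levels of the 12 bHLH genes on chromosome 3 (identifiers that begin with AT3G) are therefore uncertain. Rescaling them moved no ratio past the 2-fold mark. It acts alike on both libraries, so it can move a ratio only through the 1 added to FPKM. The 3 shoot markers had log2 ratios of -0.32 to 0.27, with RBCS1A at 12.41 in Col-0 and 12.09 in bts-1. The 5 root markers had ratios of -0.57 to 0.56, and their summed FPKM was 1111 in Col-0 and 1207 in bts-1, most of it from PYK10 (AT3G09260) at levels of 10.06 and 10.19. The levels of PYK10, of the root marker SCR and of BTS share the chromosome 3 uncertainty. So do those of all other genes named below whose identifiers begin with AT3G. The 3 root markers on other chromosomes summed to an FPKM of 16.1 in Col-0 and 18.7 in bts-1. The part of root RNA in the results below was not tested. In such bulk samples, fewer cells of a type and less RNA per cell cannot be told apart.

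The stretch of 250 bases before the annotated gene start is shown for 8 of the genes, read 5′ to 3′ from the TAIR10.1 reference of RefSeq, with each E-box in capitals. The sequences of bHLH122, bHLH129, bHLH128 and bHLH130 are given because these close relatives in the AKS and FBH group had opposite ratios, and those of bHLH87, bHLH114, bHLH137 and AT1G10585 because they had the highest and lowest ratios.
bHLH122 (chr1:18945813-18946062, minus strand): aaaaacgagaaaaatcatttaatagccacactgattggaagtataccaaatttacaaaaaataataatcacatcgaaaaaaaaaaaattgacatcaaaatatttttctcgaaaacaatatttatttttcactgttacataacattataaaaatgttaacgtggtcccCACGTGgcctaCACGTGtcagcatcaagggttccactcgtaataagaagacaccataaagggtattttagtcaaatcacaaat
bHLH129 (chr2:17935749-17935998, minus strand): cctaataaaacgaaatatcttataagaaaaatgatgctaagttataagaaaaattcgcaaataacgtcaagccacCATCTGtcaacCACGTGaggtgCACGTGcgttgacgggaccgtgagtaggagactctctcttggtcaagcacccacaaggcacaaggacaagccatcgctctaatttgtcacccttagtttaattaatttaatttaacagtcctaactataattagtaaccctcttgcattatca
bHLH128 (chr1:1744194-1744443, plus strand): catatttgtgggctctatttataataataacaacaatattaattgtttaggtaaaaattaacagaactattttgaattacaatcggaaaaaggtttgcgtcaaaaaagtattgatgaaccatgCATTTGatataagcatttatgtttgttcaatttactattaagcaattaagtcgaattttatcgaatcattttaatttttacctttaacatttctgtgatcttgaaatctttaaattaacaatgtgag
bHLH130 (chr2:17613661-17613910, minus strand): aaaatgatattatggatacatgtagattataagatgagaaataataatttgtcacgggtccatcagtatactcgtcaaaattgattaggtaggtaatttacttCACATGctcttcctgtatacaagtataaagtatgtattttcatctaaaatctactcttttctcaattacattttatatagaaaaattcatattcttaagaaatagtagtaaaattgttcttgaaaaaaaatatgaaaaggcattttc
bHLH87 (chr3:7506990-7507239, plus strand): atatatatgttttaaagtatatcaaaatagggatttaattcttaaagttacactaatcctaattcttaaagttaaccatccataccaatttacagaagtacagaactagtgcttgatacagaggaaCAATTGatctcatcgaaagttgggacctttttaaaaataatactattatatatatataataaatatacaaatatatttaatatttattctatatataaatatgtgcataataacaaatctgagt
bHLH114 (chr4:2669442-2669691, minus strand): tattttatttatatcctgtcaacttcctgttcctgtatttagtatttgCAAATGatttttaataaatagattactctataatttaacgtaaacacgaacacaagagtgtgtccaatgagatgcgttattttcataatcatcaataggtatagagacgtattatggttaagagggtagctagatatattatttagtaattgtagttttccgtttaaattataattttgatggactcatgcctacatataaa
bHLH137 (chr5:20712474-20712723, minus strand): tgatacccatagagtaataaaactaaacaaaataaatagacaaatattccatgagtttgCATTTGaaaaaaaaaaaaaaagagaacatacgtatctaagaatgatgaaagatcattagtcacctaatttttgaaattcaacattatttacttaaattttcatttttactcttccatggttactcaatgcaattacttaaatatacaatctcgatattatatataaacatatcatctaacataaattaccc
AT1G10585 (chr1:3495245-3495494, minus strand): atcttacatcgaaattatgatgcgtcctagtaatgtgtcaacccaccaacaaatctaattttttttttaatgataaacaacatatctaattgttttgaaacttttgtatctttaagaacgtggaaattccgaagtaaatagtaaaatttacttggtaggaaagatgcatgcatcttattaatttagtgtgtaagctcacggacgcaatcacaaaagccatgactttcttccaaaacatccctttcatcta

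In bHLH122 and bHLH129 these windows hold a pair of G-boxes, which lie 11 bases apart from start to start in both genes, 83 and 72 bases before the start of bHLH122 and 164 and 153 bases before that of bHLH129. The windows of bHLH128 and bHLH130 hold no G-box and 1 other E-box each. So do those of bHLH87, bHLH114 and bHLH137, and that of AT1G10585 holds no E-box. The windows of FBH2 and FBH1, also of the AKS and FBH group, are not shown. That of FBH2, with a log2 ratio of -0.59, holds 1 E-box and no G-box. That of FBH1, with a ratio of 0.14, holds no E-box. Both motifs are palindromes, so a match on a strand is a match on the other, and every G-box is also an E-box. Over all 66 windows, 63.6% held an E-box and 7.58% a G-box, against 55.3% and 6.49% of 27443 protein-coding genes. A pair of G-boxes at that spacing, looked for after it was seen in these genes, occurred in 28 of the 27443 windows, or 0.102%. At any spacing, 3 of the 66 windows held at least 2 G-boxes, or 4.55% against 0.875% of all windows; the third gene is bHLH117, with boxes 63 bases apart. These matches describe sequence only. The ratios of the 3 genes were -0.88 for bHLH122, 0.39 for bHLH129 and -0.61 for bHLH117.

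The 66 genes spanned levels from 0.11 to 8.55 in Col-0, with a median of 3.20 in Col-0 and 3.21 in bts-1, against 3.68 in both libraries for all described genes. Their summed FPKM was 1261 in Col-0 and 1300 in bts-1. These sums and the top of the range include the uncertain chromosome 3 levels, with TMO5 (AT3G25710) alone adding 374 and 266. Their median log2 ratio was 0.11, with 42 ratios above 0 and 24 below. For all described genes the median was 0.04, and 54.6% of the ratios were above 0. When ratios were centred on the nuclear median, a shift of 0.04, 39 of the bHLH genes stayed above 0 and 27 were below. The median size of the ratio, whichever its sign, was 0.34 for the bHLH genes and 0.25 for all described genes.

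Of the 66 genes, 65 were expressed by this measure. The exception was bHLH23 (AT4G28790), at 0.86 in Col-0 and 0.51 in bts-1. Of the 65, 4 were at least 2-fold higher in bts-1, which is 6.15% against 1.92% of all expressed genes, and 2 were at least 2-fold lower, which is 3.08% against 3.63%. The higher count rests in part on genes of low level. Among them bHLH114 and bHLH36 reached an FPKM of 1 only in bts-1, the library where they were higher. With a pseudocount of 5 in place of 1 only bHLH87 stayed in the higher count, while bHLH128 stood at 0.90. The share of all genes at that pseudocount is not given here. Of the 42 bHLH genes that reached an FPKM of 5, 2 were higher by that margin, or 4.76% against 1.4% of all genes that did, and 2 were lower, or 4.76% against 3.28%. No member lay at the lowest value of its library, which was 0 in Col-0 and 0.15 in bts-1. The Col-0 level of bHLH114, 0.11, was still below the lowest value of bts-1.

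**Figure D1:**
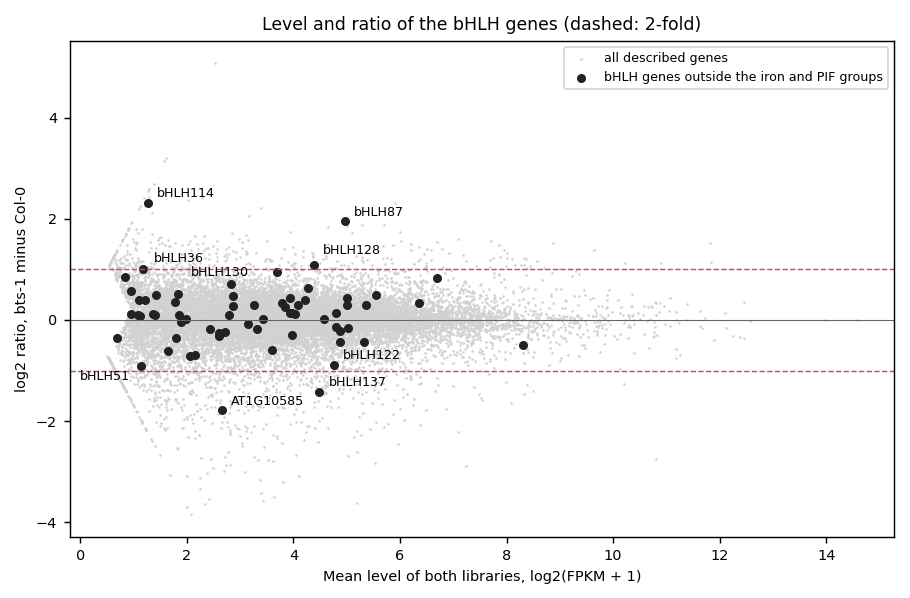
Log2 ratio (bts-1 minus Col-0, vertical axis) against the mean log2(FPKM + 1) of both libraries (horizontal axis); black points are the 66 bHLH genes, grey points all described genes, and dashed lines mark 2-fold. bHLH114 and bHLH87 lie highest among the black points, at 2.32 and 1.95, and AT1G10585 and bHLH137 lowest, at -1.78 and -1.42.

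The 4 genes at least 2-fold higher were bHLH87, bHLH114, bHLH128 and bHLH36. bHLH87 (AT3G21330), a relative of the fruit and gynoecium factors INDEHISCENT and HECATE, stood at 3.99 in Col-0 and 5.94 in bts-1, or FPKM of 14.9 and 60.4. Its log2 ratio was 1.95, and 1.97 after the chromosome 3 values were rescaled by exon length. HEC1 (AT5G67060), a relative whose description lacks the search words, stood at 0.66 and 1.64. Of the 10 anther and fruit genes listed for comparison, HEC1 and bHLH87 alone had an entry in the table.

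bHLH114 (AT4G05170) was near the bottom of the Col-0 library and clearly listed in bts-1, at 0.11 and 2.43, or FPKM of 0.08 and 4.39. Only 0.296% of the described genes had a lower Col-0 level. Its log2 ratio of 2.32 depends on the pseudocount, being 4.65 with 0.1 and 0.89 with 5 in place of 1. bHLH36 (AT5G51780) also came from a low level, at 0.68 and 1.69, and its ratio of 1.01 became 0.37 with a pseudocount of 5. With ratios centred on the nuclear median bHLH36 stood at 0.97 and no longer reached 2-fold.

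The 2 genes at least 2-fold lower were AT1G10585 and bHLH137. AT1G10585, described only as a protein with a bHLH domain, stood at 3.55 in Col-0 and 1.76 in bts-1, a log2 ratio of -1.78. Its annotated gene shares 65 bases with AT1G10580 on the same strand, which stood at 4.58 and 4.35, so reads in that stretch cannot be told apart. bHLH137 (AT5G50915) stood at 5.20 and 3.78, or FPKM of 35.7 and 12.7, a log2 ratio of -1.42. Its level in Col-0 was above that of 78.8% of described genes. Both genes stayed at least 2-fold lower with a pseudocount of 5, at -1.09 and -1.20.

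For the rest of the account, 48 of the 66 genes were placed in 10 groups by family knowledge, after their values were known. The groups are descriptive, and the other 18 genes were taken last.

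**Figure D2:**
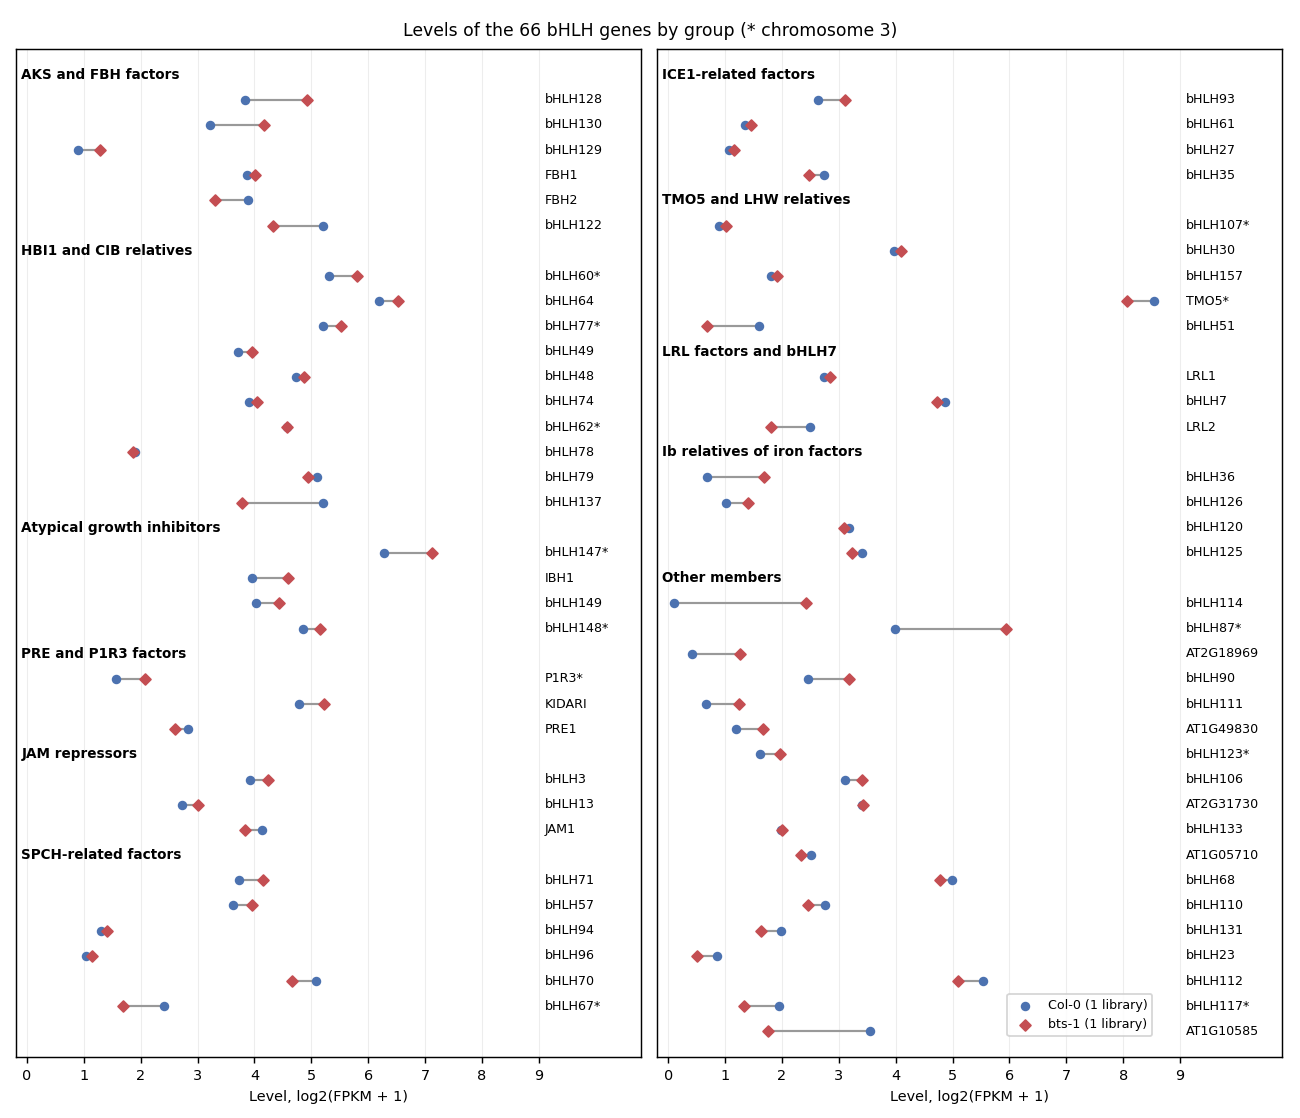
Level in log2(FPKM + 1) of each of the 66 bHLH genes in the Col-0 library (blue circle) and the bts-1 library (red diamond), joined by a line and ordered by ratio within each group; an asterisk marks chromosome 3 genes, whose levels are uncertain. In the growth inhibitor group all 4 red diamonds lie to the right of the blue circles, while the AKS and FBH group has members on both sides.

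AKS and FBH factors are close relatives with 2 known roles. ABA-RESPONSIVE KINASE SUBSTRATE (AKS) proteins activate the guard cell potassium channel gene KAT1 until abscisic acid signalling removes them from DNA, and FLOWERING BHLH (FBH) proteins activate the flowering gene CONSTANS. Of the 6 measured members 4 had ratios above 0 and 2 below, with 1 at least 2-fold higher. Over all expressed genes, the comparison for each group count below, 54.8% had ratios above 0, 1.92% were at least 2-fold higher and 3.63% lower. bHLH128 (AT1G05805, AKS2) stood at 3.84 in Col-0 and 4.92 in bts-1, a log2 ratio of 1.08. bHLH130 (AT2G42280, AKS3 and FBH4) stood at 3.22 and 4.17, a ratio of 0.94 that falls just short of 2-fold. Both were thus the higher ones in bts-1.

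bHLH122 (AT1G51140, AKS1 and FBH3) went the other way, at 5.20 in Col-0 and 4.32 in bts-1, a log2 ratio of -0.88. FBH2 (AT4G09180) was also lower, at 3.89 and 3.30. FBH1 (AT1G35460) was nearly level at 3.87 and 4.01. bHLH129 (AT2G43140), at 0.90 and 1.29, was the lowest of the group in both libraries. In Col-0 bHLH122 had the highest level of the 6, at an FPKM of 35.9 against 13.3 for bHLH128 and 8.33 for bHLH130; in bts-1 bHLH128 led with 29.3, ahead of bHLH122 with 19.0 and bHLH130 with 17.0. The annotated bHLH130 gene overlaps 2 genes on the opposite strand: AT2G42270 over 149 bases, with a log2 ratio of -0.58, and the long non-coding RNA gene AT2G09350 over 681 bases, with no value here. The strand used in counting is not given, so reads of such overlaps cannot be told apart. The channel genes KAT1 (AT5G46240) and KAT2 (AT4G18290), looked up after the group's values were seen, stood at 4.26 and 4.39 and at 2.82 and 3.13.

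Atypical growth inhibitors pair with growth-promoting bHLH factors such as HBI1 and block their binding to DNA. All 4 members had ratios above 0, with a median of 0.52 and none at 2-fold. With pseudocounts of 0.1 and 5, with centred ratios and with chromosome 3 rescaled, none reached 2-fold and the median ran from 0.43 to 0.54. These settings were added after the values were seen. They say nothing on the signs, because pseudocounts and rescaling cannot change a sign and centring shifted ratios by only 0.04. IBH1 (AT2G43060), the best known of them, stood at 3.95 in Col-0 and 4.59 in bts-1. The ATBS1 INTERACTING FACTOR genes AIF3, AIF2 and AIF4 are listed as bHLH147, bHLH148 and bHLH149. AIF3 (AT3G17100) stood at 6.28 and 7.12, a log2 ratio of 0.83. AIF2 (AT3G06590) stood at 4.86 and 5.16, and AIF4 (AT1G09250) at 4.03 and 4.42. AIF3 and AIF2 are on chromosome 3, and their rescaled Col-0 levels were 5.51 and 2.43, with ratios of 0.83 and 0.26.

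Other genes of this kind have descriptions without the search words. Over a list of 9 atypical growth inhibitors, members included, 8 ratios were above 0, where 54.8% of expressed genes were, the median was 0.81, and 1 gene was at least 2-fold higher, where 1.92% of expressed genes were. A list of 11 growth activators, which these inhibitors oppose, gave the same counts over its 9 measured genes, 8 above 0 and 1 at least 2-fold higher, with a median of 0.33. AIF1 (AT3G05800) stood at 1.87 and 2.96, PAR1 (AT2G42870) at 3.37 and 4.37, and HFR1 (AT1G02340), which holds back PIF proteins in shade, at 3.03 and 4.02. IBL1 (AT4G30410) stood at 1.96 and 2.77. PAR2 (AT3G58850) was the exception, at 2.68 and 2.60.

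**Figure D3:**
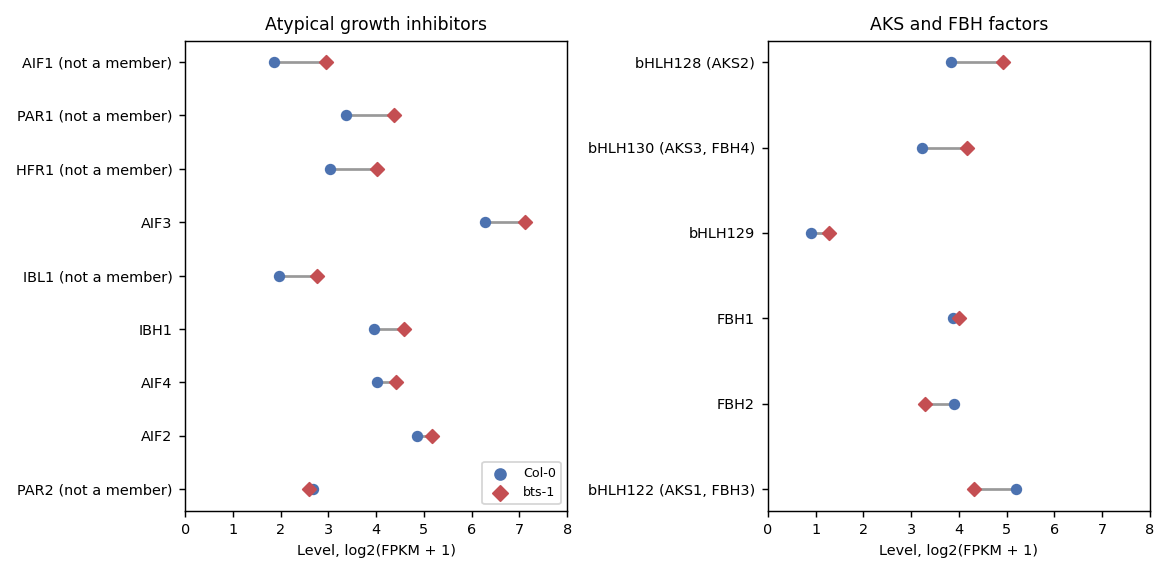
Level in log2(FPKM + 1) in Col-0 (blue circle) and bts-1 (red diamond), 1 library each, of 9 atypical growth inhibitor genes (left) and of the 6 AKS and FBH genes (right), ordered by ratio. On the left 8 of 9 genes are higher in bts-1, PAR2 excepted; on the right bHLH128 and bHLH130 are higher by 1.08 and 0.94, while FBH2 and bHLH122 are lower.

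HBI1 and its relatives promote cell elongation under brassinosteroid, gibberellin and light signals, and the CIB proteins among them bind the blue light receptor CRY2 to promote flowering. Of 10 members 7 had ratios above 0, the median was 0.14, and bHLH137 was the 1 member past 2-fold. HBI1 (AT2G18300, listed as bHLH64) stood at 6.19 in Col-0 and 6.52 in bts-1. With chromosome 3 rescaled it had the highest mean level of all 66 genes. bHLH60 (AT3G57800) stood at 5.31 and 5.80, while its close relative bHLH48 (AT2G42300) stood at 4.73 and 4.87.

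The CIB genes and CIB-like genes among the 66 had ratios of -0.05 to 0.30. bHLH74 (AT1G10120, CIB4) stood at 3.90 in Col-0 and 4.04 in bts-1, bHLH62 (AT3G07340, CIB3) at 4.57 and 4.58, and bHLH78 (AT5G48560, CIB2) at 1.91 and 1.86. bHLH49 (AT1G68920, CIL1) stood at 3.71 and 3.96 and bHLH77 (AT3G23690, CIL2) at 5.21 and 5.52. CIB5 (AT1G26260), which the search words miss, was low in both libraries and had a larger ratio of 0.79, at 0.83 and 1.62. bHLH79 (AT5G62610) stood at 5.10 and 4.93. Apart from bHLH137 at -1.42, the ratios in the group ran from -0.16 to 0.49.

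PRE proteins are atypical members of the opposite effect: they bind inhibitors such as IBH1 and so free HBI1. PRE1 (AT5G39860) stood at 2.83 in Col-0 and 2.60 in bts-1, and KIDARI (AT1G26945, PRE6) at 4.78 and 5.22. P1R3 (AT3G29370), listed as an atypical factor, stood at 1.57 and 2.08. BNQ2 (AT5G15160, PRE2), not found by the search words, stood at 2.93 and 3.39. The measured genes of this kind thus had both signs, with none past 2-fold. Of the 5 brassinosteroid pathway genes listed for comparison, 4 had ratios above 0 and none reached 2-fold. CPD (AT5G05690), a synthesis enzyme that brassinosteroid itself represses, had the largest ratio at 6.39 and 7.31, and the receptor gene BRI1 (AT4G39400) stood at 6.03 and 6.56.

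JAM repressors compete with the activator MYC2 for jasmonate target genes. JAM1 (AT2G46510) stood at 4.13 in Col-0 and 3.83 in bts-1, bHLH13 (AT1G01260, JAM2) at 2.73 and 3.01, and bHLH3 (AT4G16430, JAM3) at 3.93 and 4.23. None reached 2-fold, and the ratios of -0.29, 0.28 and 0.30 did not share a sign. The activators gave a wider spread: MYC2 (AT1G32640) stood at 5.50 and 3.89, MYC3 (AT5G46760) at 5.74 and 5.65, and MYC4 (AT4G17880) at 3.81 and 3.53. Of the 15 jasmonate signalling and output genes listed for comparison 4 were at least 2-fold lower and none at least 2-fold higher, against 3.63% and 1.92% of expressed genes, with a median log2 ratio of -0.72; all 4 are JAZ repressors, which MYC2 induces. JAZ7 (AT2G34600) stood at 5.38 and 1.88, JAZ1 (AT1G19180) at 4.75 and 2.47, JAZ5 (AT1G17380) at 3.25 and 1.83, and JAZ8 (AT1G30135) at 1.69 and 0.57. Of the other 11, 7 had ratios below 0 and 4 above, the latter JAZ3 (AT3G17860) at 0.10, JAZ4 (AT1G48500) at 0.41, the receptor gene COI1 (AT2G39940) at 0.02 and the MYC2 output VSP2 (AT5G24770) at 0.25. VSP1 (AT5G24780) and LOX2 (AT3G45140), further outputs, had ratios of -0.08 and -0.65. The lowest ratios among these 11 were those of JAZ6 (AT1G72450) at -0.99 and JAZ10 (AT5G13220) at -0.95.

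The SPCH-related factors are kin of SPEECHLESS, MUTE and FAMA, which drive the steps of stomatal development. Of 6 members 4 had ratios above 0 and none reached 2-fold. bHLH71 (AT5G46690), a partner of FAMA, stood at 3.72 in Col-0 and 4.15 in bts-1, and bHLH57 (AT4G01460) at 3.61 and 3.95. bHLH67 (AT3G61950) and bHLH70 (AT2G46810) were lower, at 2.42 and 1.70 and at 5.09 and 4.66. bHLH94 (AT1G22490) and bHLH96 (AT1G72210) were low in both libraries, at 1.31 and 1.42 and at 1.05 and 1.14. The lineage factors themselves had small ratios: SPCH (AT5G53210) stood at 3.28 and 3.51, MUTE (AT3G06120) at 1.49 and 1.46, and FAMA (AT3G24140) at 4.02 and 4.37. None of 8 other stomatal pathway genes reached 2-fold, and the largest ratio was 0.90, for EPF1 (AT2G20875), a secreted peptide that limits stomatal number.

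The ICE1-related factors stood at low to middling levels with none past 2-fold. bHLH93 (AT5G65640), a further FAMA partner, stood at 2.63 in Col-0 and 3.10 in bts-1, and its close relative bHLH61 (AT5G10570) at 1.36 and 1.45. bHLH35 (AT5G57150) stood at 2.73 and 2.47 and bHLH27 (AT4G29930) at 1.08 and 1.15. The ratio of bHLH93, 0.47, was the largest of these 4.

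TMO5 and LHW proteins pair to drive cell division in vascular tissue. TMO5 (AT3G25710, listed as BHLH32) had the highest deposited level of all 66 genes, at 8.55 in Col-0 and 8.06 in bts-1. That rank rests on the chromosome 3 levels: rescaled by exon length, TMO5 stood at 4.26 and 3.80 and ranked 19 of 66 by mean level, with a ratio of -0.46. Its relatives diverged, bHLH51 (AT2G40200, T5L3) being lower at 1.59 and 0.68, while bHLH30 (AT1G68810, T5L1) stood at 3.97 and 4.09 and bHLH107 (AT3G56770, T5L2) at 0.90 and 1.02. The bHLH51 gene overlaps AT2G40205 on the opposite strand over 202 bases, and that gene was far higher, at 6.52 and 5.92. bHLH157 (AT1G64625), a LHW-like gene, stood at 1.81 and 1.91.

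LRL genes are known for root hair growth. LRL1 (AT2G24260) stood at 2.74 in Col-0 and 2.84 in bts-1, LRL2 (AT4G30980) at 2.49 and 1.81, and their relative bHLH7 (AT1G03040) at 4.87 and 4.73. Of 9 root hair bHLH genes listed for comparison, LRL1 and LRL2 alone had an entry in the table. The 5 root markers had ratios on both sides of 0, and their part in the LRL2 ratio of -0.69 was not tested.

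The nearest relatives of the iron-responsive Ib bHLH factors within the 66 genes are bHLH36, bHLH120, bHLH125 and bHLH126. bHLH36 was described above at 0.68 in Col-0 and 1.69 in bts-1. Its neighbour on chromosome 5 with no protein-coding gene between, bHLH120 (AT5G51790), stood at 3.18 and 3.10. bHLH125 (AT1G62975) stood at 3.40 and 3.23 and bHLH126 (AT4G25410) at 1.02 and 1.41. The ratios of the adjacent genes bHLH36 and bHLH120 were thus 1.01 and -0.09. The iron-responsive Ib genes, which the rule leaves out, had ratios of 1.60 for AT3G56970, 1.08 for AT2G41240, 0.41 for AT3G56980 and -0.14 for AT5G04150. Over the 12 iron bHLH genes left out the median ratio was 0.08, and 2 of the 11 expressed ones were at least 2-fold higher, where 1.92% of all expressed genes were; over the 4 PIF genes left out it was 0.02 with none past 2-fold.

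Among the 18 genes outside these groups 10 ratios were above 0, the median was 0.02, and bHLH87, bHLH114 and AT1G10585 were past 2-fold. bHLH90 (AT1G10610) stood at 2.47 in Col-0 and 3.18 in bts-1, AT2G18969 at 0.42 and 1.26, and bHLH111 (AT1G31050) at 0.66 and 1.24. AT2G18969 overlaps AT2G18970 on the opposite strand over 459 bases, a gene with no value here. bHLH112 (AT1G61660), which raises tolerance of salt and drought, stood at 5.54 and 5.10. bHLH106 (AT2G41130), also tied to salt tolerance, stood at 3.12 and 3.41. bHLH117 (AT3G22100) was lower, at 1.95 and 1.34, and after rescaling at 3.48 and 2.69.

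The remaining 8 of these, besides bHLH23, had ratios of -0.35 to 0.49. bHLH68 (AT4G29100) was the highest of them, at 4.99 in Col-0 and 4.77 in bts-1. bHLH131 (AT4G38070) stood at 1.98 and 1.63 and bHLH110 (AT1G27660) at 2.76 and 2.45. AT1G49830 and bHLH123 (AT3G20640) were the higher ones in bts-1, at 1.19 and 1.67 and at 1.61 and 1.96. AT1G05710 stood at 2.52 and 2.34. AT2G31730, at 3.41 and 3.43, and bHLH133 (AT2G20100), at 1.98 and 2.00, were level to within 0.03.

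**Figure D4:**
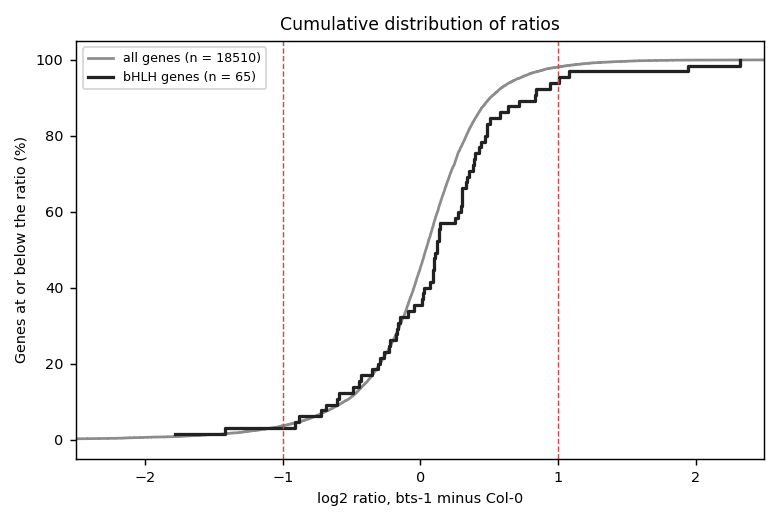
Share of genes (percent, vertical axis) at or below each log2 ratio (bts-1 minus Col-0, horizontal axis) for the 65 bHLH genes (black) and all 18510 expressed genes (grey); dashed lines mark 2-fold. The medians are 0.12 for the black curve and 0.04 for the grey one, and the upper quartiles 0.40 and 0.27.

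With those past 2-fold included, 11 of the 66 genes had a log2 ratio of at least 0.5 and 8 a ratio of at most -0.5. Over the 65 expressed ones these are 16.9% and 12.3%, against 10.4% and 11.2% of all genes. By mean level, the 20 bHLH genes under 2 had a median size of ratio of 0.37 against 0.39 for all genes of that range. The 23 between 2 and 4 had 0.29 against 0.26, and the 22 above 4 had 0.41 against 0.20. These ranges used the deposited levels, which are uncertain for chromosome 3 genes. The mean level of bHLH148, for example, was 5.01 as deposited and 2.56 rescaled. By chromosome, the median ratio ran from -0.07 for the 10 genes on chromosome 4 and the 10 on chromosome 5 to 0.30 for the 12 on chromosome 3. In all, 15 of the 66 annotated genes overlap another annotated gene, 11 of them on the opposite strand.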

How the data were processed

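Shoot total RNA gave 1 library per genotype with a directional kit, per the labels' protocols. Per the submitters' processing notes, the tools were HTSeq 0.9.1, TopHat2 2.1.0, Bowtie, cutadapt 1.12 and CASAVA 1.8.2 with the build TAIR10. The sources used here do not give their settings or the strand used in counting. The values the authors deposited, named normalized FPKM, were read as log2(FPKM + 1). FPKM times exon length in kilobases, summed over genes, should come near the scale FPKM is defined on; it came to 1589846 in Col-0 under this reading and to 26824109 with the values taken as natural logs. After sorting, 99.1% of ranks hold equal values in both libraries to within 0.001, a pattern that quantile normalization gives and that no label records, so any overall difference between the libraries is not visible. The table holds no counts, and the depth is unknown.

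The log2 ratio is the difference of the deposited log2 columns; it understates differences of low genes. 2 rows without a description were left out. No test was possible with 1 library per genotype. Named genes are those at least 2-fold higher or lower, those of highest level and those of the groups; in fact all 66 are given. The members and lists were chosen with earlier results of these data known, and the 10 groups, KAT1 and KAT2, and the G-box spacing after values were seen. Upstream sequences, exon lengths and overlaps come from TAIR10.1 by gene identifier. For chromosome 3, FPKM was multiplied by the ratio of the following gene's exon length to the gene's own. The ratio and count code was tested on simulated data. Alternatives were other pseudocounts, filters, centring, and leaving out or rescaling chromosome 3. Python 3.11.15, pandas 2.3.3 and NumPy 2.4.6 were used.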

Additional observations from a re-analysis of the deposited data

How the results depend on the processing

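With 1 library per genotype no library could be left out. No paired analysis was possible because each genotype has 1 library and no test was run. The number of bHLH genes at least 2-fold higher, 4 as reported, was 7 with a pseudocount of 0.1, 1 with a pseudocount of 5 and 2 with an FPKM of at least 5; bHLH87 was the gene left with the pseudocount of 5. It was 3 with centred ratios and 3 without chromosome 3. The number at least 2-fold lower was 2 to 3 under every alternative run. Over all expressed genes 1.92% were higher and 3.63% lower, and 1.4% and 3.28% with an FPKM of at least 5. Shares over all genes at the other settings are not given here, so the counts at those settings have no comparison. The median log2 ratio of 65 genes, 0.12 as reported, was 0.14 and 0.063 with pseudocounts of 0.1 and 5, 0.11 without a filter, 0.14 with an FPKM of at least 5, 0.083 centred and 0.10 without chromosome 3. Rescaling chromosome 3, chosen after seeing the data, changed none of these 3 results, but it moves a ratio only through the pseudocount. No member lay at the lowest value of a library, so leaving out such genes could not change them. The pseudocounts and the rescaling act alike on both libraries, so they cannot change the sign of a ratio. Centring shifted every ratio by 0.04, too little to change the sign of the 6 genes past 2-fold. The depth is unknown, so low levels have no counting interval.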

Other observations

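Some listed bHLH genes are missed by the search words and not left out by the rule. Among these PIF6, BEE1 and the growth inhibitor gene AIF1 (AT3G05800) were more than 2-fold higher, AIF1 with a log2 ratio of 1.09. MYC2 was more than 2-fold lower, at -1.61. Of all expressed genes 1.92% were at least 2-fold higher and 3.63% lower. The share within the listed genes is not given here. PIF6 (AT3G62090), a PIF relative, stood at 2.28 in Col-0 and 3.95 in bts-1, a log2 ratio of 1.67. BEE1 (AT1G18400), a growth activator induced by brassinosteroid, stood at 2.98 and 4.14, while its relatives BEE2 (AT4G36540) and BEE3 (AT1G73830) were nearly level, at 6.31 and 6.34 and at 5.16 and 5.12. UNE10 (AT4G00050), also a PIF relative, was lower at 6.06 and 5.29, as was ALC (AT5G67110), a fruit opening factor, with a log2 ratio of -0.64. SPT (AT4G36930), close kin of ALC, stood at 1.30 and 1.91.

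EGL3 (AT1G63650) and MYC1 (AT4G00480), which work with MYB factors and TTG1 in hair formation and pigment synthesis, stood at 2.08 and 1.70 and at 2.84 and 2.95. Of 9 measured MYB, TTG1 and anthocyanin genes 4 had ratios above 0 and 5 below, with MYBL2 (AT1G71030) highest at 0.39. Of the 9, 1 was at least 2-fold lower and none higher, against 3.63% and 1.92% of expressed genes. The lower gene was TRY (AT5G53200), which blocks hair formation, at 2.97 and 1.71. PAP1 (AT1G56650), an activator of anthocyanin synthesis, stood at 2.42 and 1.49. NAI1 (AT2G22770), which controls endoplasmic reticulum bodies, stood at 4.63 and 4.21. CBF2 (AT4G25470), a cold factor downstream of ICE1, stood at 0.97 and 0.63, while ICE1 (AT3G26744) stood at 9.63 and 9.71. The ICE1 level shares the chromosome 3 uncertainty, and its rescaled value is not given here.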
